A study of Mus musculus with 2 samples.

Results

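The genes described here are 10 genes of red cell glycolysis, Bpgm, Pklr, Pkm, Hk1, Gpi1, Pfkl, Aldoa, Ldha, Slc2a1 and Eno1, listed by symbol and taken from the 32285 genes of the deposited matrices. Each of the 10 symbols was present. They were chosen as enzymes and a glucose transporter of the pathway, with no measured value in the rule. Single-cell RNA was sequenced from the flushed bone marrow of 2 mice, with 1 library per genotype. The control library is labelled WT, and the study describes that mouse as a littermate. The study's methods give the littermate controls of DKO mice as Ddx41 fl/fl without VavCre, with wild-type cGas. The other mouse, named DKO, carried VavCre with both Ddx41 alleles floxed and lacked cGAS (labelled VavCre:Ddx41 fl/fl, cGAS-/-). Both mice were 2 months old. VavCre drives recombination in blood-forming cells, and the study bred it through females to avoid recombination in the male germline. With 1 mouse each, genotype, mouse and library cannot be told apart, and no test between them exists: intervals here are 95% intervals of counting error only.

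Mature red cells have no mitochondria and live on glycolysis alone. Hexokinase, phosphofructokinase and pyruvate kinase are its regulated steps, and lactate dehydrogenase restores the NAD that the pathway consumes. Bpgm encodes bisphosphoglycerate mutase, which runs a side branch peculiar to red cells: its product, bisphosphoglycerate, binds hemoglobin and lowers its affinity for oxygen. Pyruvate kinase comes from separate genes, Pklr in red cells and liver and Pkm in most other tissues, and inherited loss of the red cell enzyme causes hemolytic anemia.

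Erythroid cells were placed in 5 stages by the share of their UMIs (unique molecular identifiers, counts of captured molecules) that came from hemoglobin genes: under 15%, 15 to 40%, 40 to 75%, 75 to 90%, and 90% and over. The control library held 1028, 551, 1223, 3632 and 1391 cells in these stages and the DKO library 718, 495, 1211, 1415 and 2611. A level is given as CPM, counts per 1000000, here a gene's UMIs per 1000000 UMIs of genes other than hemoglobin, summed over the cells of 1 stage and 1 library, because hemoglobin alone took 92.6% of UMIs in the last DKO stage. After filters, 18607 control and 13719 DKO cells remained, with medians of 4874 and 6900 UMIs. Called cells of the libraries shared 81 barcodes. In the first stage the median fell to 1361 UMIs in the control and 1611 in DKO cells, and it included a cluster of shallow cells led by Car1 and Mt2. All 9 late erythroid markers were above 0 in each stage, as were all 10 early ones. In the control, late markers, hemoglobin included, went from 43349 to 919994 CPM of all UMIs, a rise built into stages cut by hemoglobin share. Early markers went from 10050 to 938 on the same scale. Hemoglobin fills its denominator in late stages, so this fall is no separate check on the stages.

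Ddx41, the deleted gene, had 2402 UMIs in all control cells and 916 in all DKO cells, 28.4 and 12.6 CPM. Its level was lower in the DKO library in each of the 5 erythroid stages, with log2 ratios of −0.80, −1.06, −0.86, −1.17 and −1.13 from first to last. The first stage held 201 control and 135 DKO UMIs, with level intervals apart. Later stages held 23, 19, 13 and 5 control and 13, 17, 3 and 6 DKO UMIs, and their level intervals overlapped. Cgas retained 830 UMIs in the DKO library against 1611 in the control. Reads near the 3′ end of a transcript check a deletion only where they lie inside it, and whether they do here was not tested.

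Sequence just upstream of Bpgm and of the erythroid start of Pklr is shown because these genes lay at opposite ends of the erythroid course. It comes from RefSeq on GRCm38.p6, plus strand, 5′ to 3′. For Bpgm, the bases at chr6:34476106-34476206 end just before the GENCODE gene start, and for Pklr the 250 bases at chr3:89135892-89136141 end before the more upstream of the 2 listed starts, which is the one used in red cells. Capitals mark words searched on both strands. One kind holds the core bound by the factor GATA1 and was searched as AGATAA and as AGATAG, each also with a T as its first letter. The other, CACCC, is a core bound by factors such as KLF1. Searched words did not overlap one another.
Bpgm: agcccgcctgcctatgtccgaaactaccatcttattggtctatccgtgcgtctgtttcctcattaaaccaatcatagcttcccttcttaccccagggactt
Pklr: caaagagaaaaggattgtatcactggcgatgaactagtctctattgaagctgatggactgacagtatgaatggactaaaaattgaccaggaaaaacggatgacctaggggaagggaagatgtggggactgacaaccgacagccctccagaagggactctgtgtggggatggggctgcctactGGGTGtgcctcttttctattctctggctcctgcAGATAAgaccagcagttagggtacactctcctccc

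The Pklr stretch held 1 GATA word, beginning 35 bases before the start, and 1 CACCC word on the opposite strand, 68 bases before it. In the 250 bases before the RefSeq start of Bpgm, neither kind of word occurred. Among all 32851 listed promoters of 250 bases, 26.5% held a GATA word and 52.0% a CACCC word, and among the 18 promoters listed for the 10 genes the counts were 3 and 9. A match describes the letters and does not show a binding site.

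Bpgm rose with hemoglobin more than any other of the 10 genes. In the control library its level was 114, 248, 2490, 20166 and 28049 CPM from the first stage to the last. In the DKO library the levels were 65.7, 113, 1349, 13441 and 24146. Both series climbed without a break, and each stage from 40% hemoglobin on lay apart from the one before. In the last stage 2.80% of control and 2.41% of DKO UMIs outside hemoglobin were Bpgm, where it ranked 3rd among all genes other than hemoglobin in both libraries. At 75 to 90% it ranked 3rd in the control and 5th in the DKO library. The gene lies on chromosome 6, from 34476207 to 34505613 on the plus strand in the mm10 annotation, and none of the 50-base words in the last 500 bases of its transcripts recurred in another gene.

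**Figure D1:**
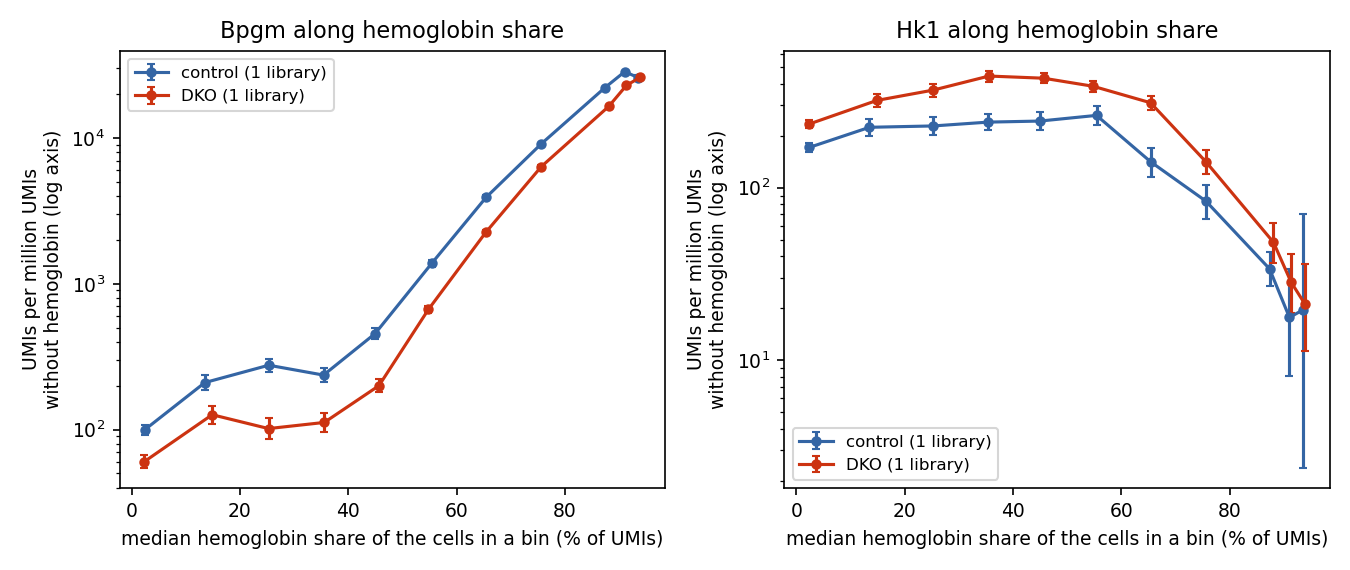
Levels of Bpgm (left) and Hk1 (right) in erythroid cells binned by hemoglobin share. The horizontal axis is the median hemoglobin share of a bin in percent of UMIs, the vertical axis is UMIs per 1000000 UMIs without hemoglobin on a log scale, points are sums over the cells of 1 library and bars are 95% Poisson intervals. Bpgm was lower in the DKO library in 10 of 11 bins, and Hk1 higher in 11 of 11.

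Most of the Bpgm increase fell between 40% and 90% hemoglobin. From the 15 to 40% stage to the next, Bpgm increased 10.0-fold in the control and 11.9-fold in DKO cells, where 6.53% of 4319 genes tested rose at least 2-fold in both. The following step gave 8.10-fold and 9.97-fold, where 3.12% of 3466 genes did so. At the last step the increase was 1.39-fold and 1.80-fold, where 0 of 1968 genes (0%) rose 2-fold in both. With hemoglobin kept in the denominator that last step turned to a decrease, by 0.27 and 0.19 on the log2 scale, since hemoglobin itself took up a larger share.

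Cell by cell, Bpgm passed from a minority of cells to nearly all. After each cell was thinned to 200 UMIs outside hemoglobin, the share with a Bpgm UMI was 6.71% in the first control stage (5.26 to 8.42%) and 6.35%, 39.4%, 96.0% and 97.8% in the following ones. In the DKO library the shares were 4.74% (3.30 to 6.55%), 4.04%, 24.1%, 88.6% and 97.6%. Thinning left out 13 control and 50 DKO cells of the fourth stage and 118 and 154 of the last, as too shallow. Unthinned shares were 28.6%, 44.6%, 84.3%, 99.4% and 94.9% in the control and 26.0%, 39.4%, 70.4%, 98.2% and 97.4% in DKO cells. For comparison, neutrophils, which make no hemoglobin, gave thinned shares of 2.36% and 1.63%.

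Part of the Bpgm UMIs of the first stage could come from free RNA. Free RNA, released by broken cells and captured in every droplet, was read from 1125245 near-empty control droplets. These held 3.07 Bpgm UMIs per 1000 hemoglobin UMIs. The first erythroid stage had 2.64 in the control and 1.68 in DKO cells, whereas the second had 0.62 and 0.28. The ratio to hemoglobin counts the cells' own hemoglobin too and sets no bound on their own Bpgm. Estimated from leukocyte genes described further on, free RNA could account for at most 34.5% of first-stage Bpgm UMIs in the control and 24.7% in DKO cells, and for at most 1.60% in either library from 40% hemoglobin on. Against the first stage, Bpgm was 246-fold higher in the last control stage and 366-fold higher in the last DKO stage. That fold is 4.43 and 4.82 on the log2 scale when hemoglobin stays in the denominator, instead of 7.94 and 8.52.

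The macrophage, megakaryocyte and other non-erythroid classes also contained Bpgm UMIs, set here beside their hemoglobin UMIs. Levels in control macrophages (2427 CPM) and megakaryocytes (749 CPM) exceeded those in the remaining non-erythroid classes, which spanned 41.5 in granulocyte-monocyte progenitors to 363 in an unnamed cluster led by Il1b. Per 1000 hemoglobin UMIs, however, the 10 non-erythroid classes lay between 3.03 and 4.80 in the control and between 1.74 and 2.95 in DKO cells. Late erythroid cells of the 75 to 90% stage had 3.30 and 2.40. Control empty droplets had 3.07, within the range of the control classes and above that of the DKO classes. Control basophils or mast cells at 4.80 and monocytes at 4.19 were the highest. No empty droplets of the DKO library were available, and the part of free RNA in these ratios was not tested. Of the summed UMIs of macrophages of both libraries, 44.4% were hemoglobin, but the median cell held far less, 1.52% (control) and 1.29% (DKO). Without thinning, a Bpgm UMI was found in 20.8% of control macrophages and 12.1% of DKO ones. Macrophages engulf erythroid nuclei and red cells in marrow, and whether this brought their hemoglobin was not tested. Ordered by level in the control library, 40 to 75% cells (2437 to 2544) and macrophages (2291 to 2569) overlapped in their intervals, as did 15 to 40% cells and B cells, and the run from neutrophils through basophils or mast cells and the first erythroid stage to monocytes.

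**Figure D2:**
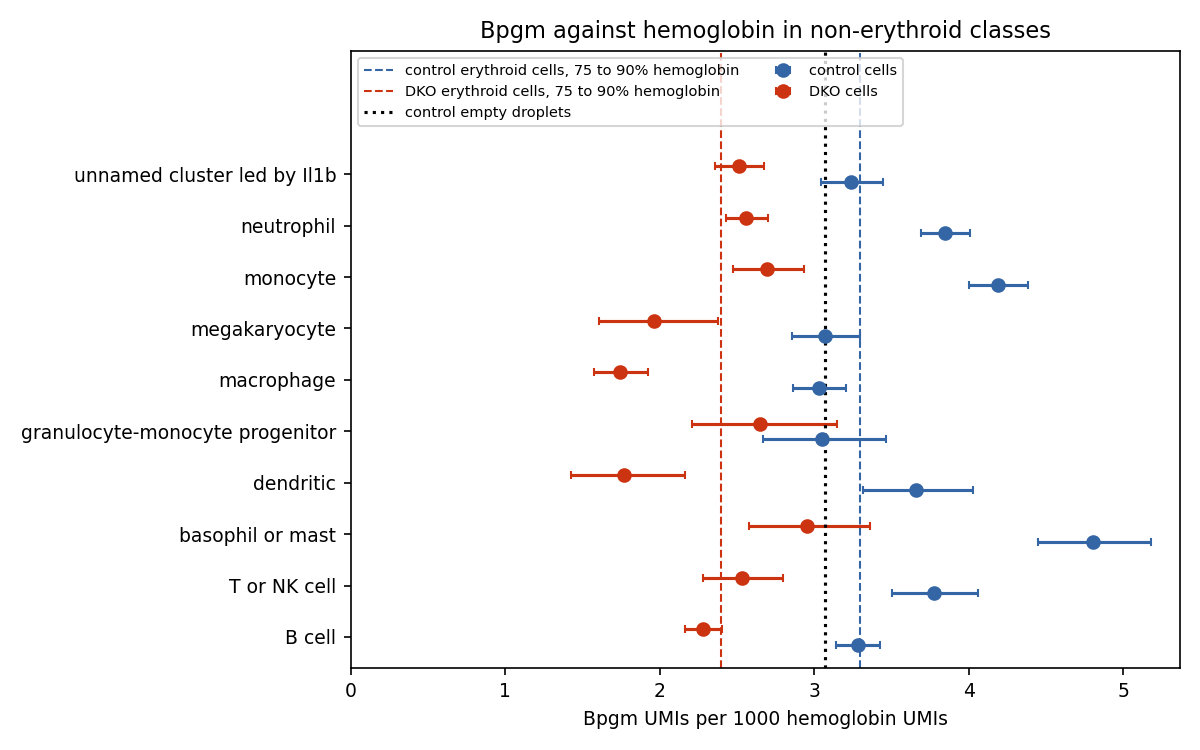
Bpgm UMIs per 1000 hemoglobin UMIs (horizontal axis) in 10 non-erythroid classes, control in blue and DKO in red. Points are 1 library each with 95% Poisson intervals of the Bpgm count, dashed lines mark erythroid cells of 75 to 90% hemoglobin in the same library and the dotted line marks control empty droplets at 3.07; control classes lie from 3.03 to 4.80 and DKO classes from 1.74 to 2.95.

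Pyruvate kinase showed the Pklr gene early and neither gene clearly late. Pklr was at 42.2 CPM in the first control stage and 5.58, 2.38, 2.49 and 1.63 afterwards. The DKO library gave 57.5, then 8.66, 0.91, 1.67 and 1.28. The first stage stood above every other erythroid stage in both libraries, and from 40% hemoglobin on no library held more than 8 Pklr UMIs in a stage. In the 10 other classes Pklr did not pass 4.10 CPM. Pkm, the form of most other cells, was at 15.2, 11.5, 19.4, 46.3 and 80.1 CPM in control stages and 6.83, 6.11, 9.29, 14.4 and 28.1 in DKO stages. Free RNA could bring 99.6% to 206% of those Pkm UMIs, so that none of the 10 values stood clear of it. Of UMIs from both genes, Pklr made up 73.5% in the first control stage (68.6 to 78.0%) and 89.4% in the first DKO stage (86.2 to 92.1%).

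Hk1, hexokinase, the entry step of glycolysis, fell from 75% hemoglobin on, where Bpgm was still rising. Its control levels were 179, 231, 204, 40.3 and 18.0 CPM, and its DKO levels 242, 390, 362, 72.2 and 25.5. From the first stage to the second it increased, as Bpgm did, by 1.29-fold in the control and 1.61-fold in DKO cells. It stayed between 179 and 231 CPM in the control until 75% hemoglobin and then fell in each library, to 0.199 and 0.201 of its previous value. At that step 51.7% of genes tested fell at least 2-fold in both libraries. It was lower again at the last step, to 0.483 and 0.360 of the level before, where 21.8% of genes fell as far. Outside the erythroid stages megakaryocytes were highest, at 256 and 255 CPM, followed by basophils or mast cells at 96.2 and 107. At most 4.33% of Hk1 UMIs up to 75% hemoglobin could be free RNA. At 75 to 90% that bound was 47.2% in the control and 10.7% in DKO cells. In the last stage it exceeded the 11 Hk1 UMIs of the control and stayed below the 40 of DKO cells.

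**Figure D3:**
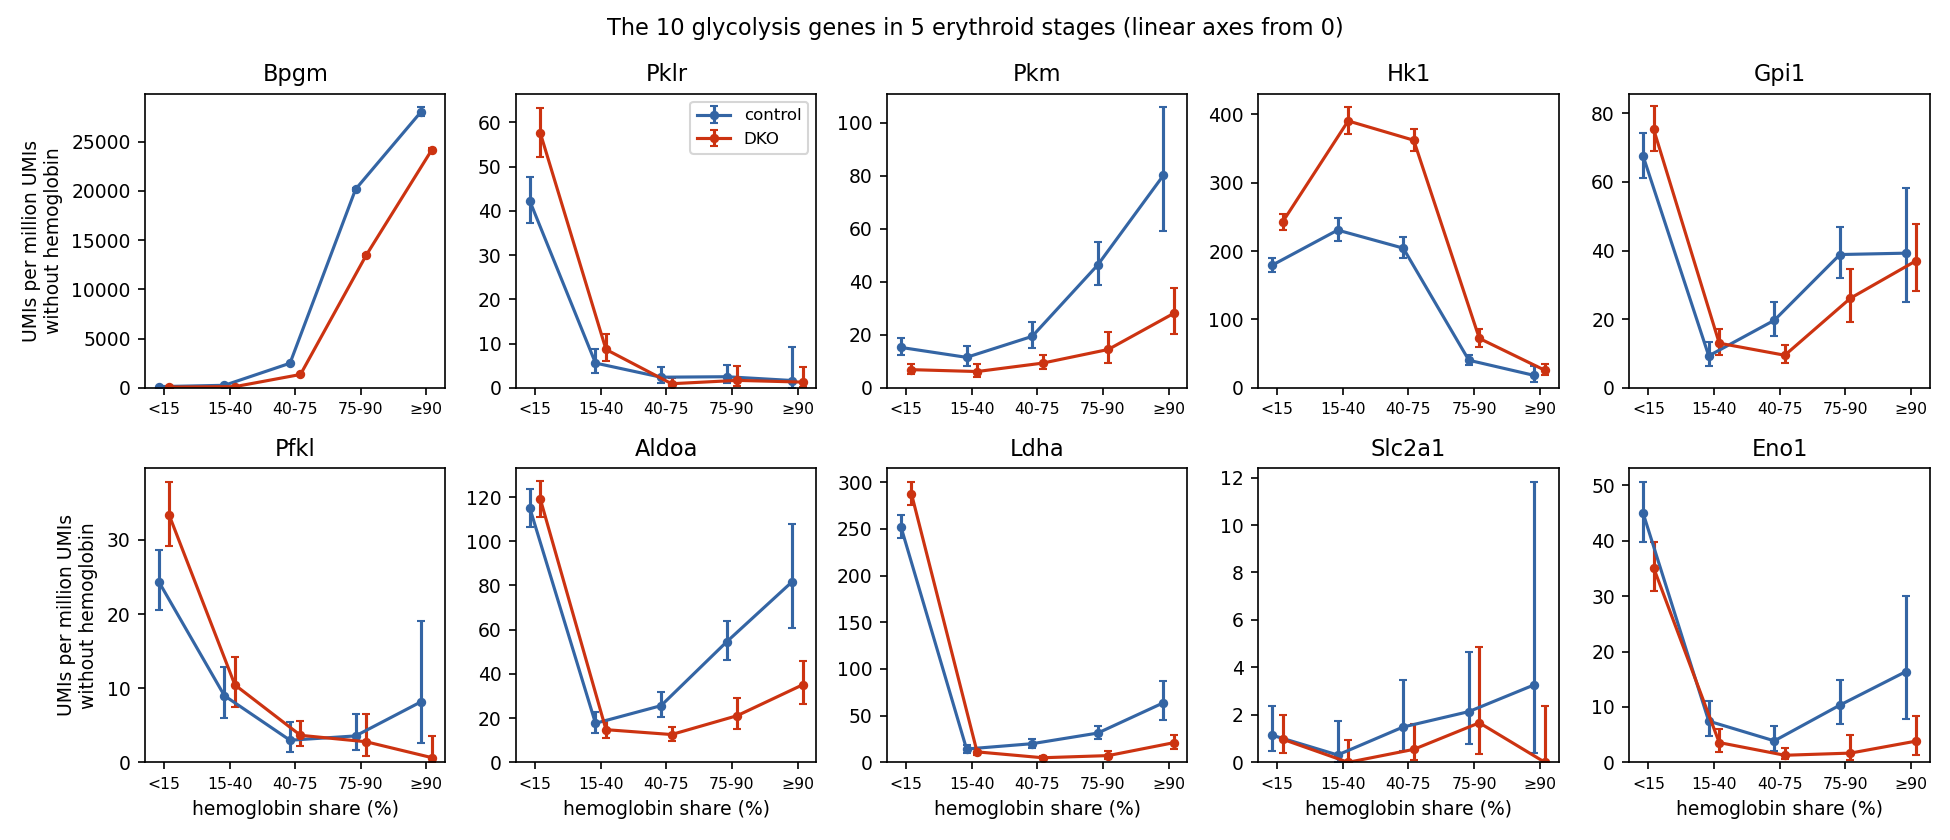
Levels of the 10 genes in 5 erythroid stages, 1 panel per gene with its own linear vertical axis from 0, in UMIs per 1000000 UMIs without hemoglobin. The horizontal axis gives the hemoglobin share, control is blue, DKO is red, points are sums over the cells of 1 library and bars are 95% Poisson intervals; Bpgm alone rises more than 2-fold from first to last stage in both libraries among the 8 genes tested.

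The middle of the pathway was highest before hemoglobin accumulated. Gpi1, glucose phosphate isomerase, was at 67.5 CPM in the first control stage and 75.4 in the first DKO stage, then at 9.30 and 12.99 in the second. Aldoa, aldolase, dropped from 115 to 17.7 in the control and from 119 to 14.8 in DKO cells. Ldha, lactate dehydrogenase, had the steepest drop of the 10 genes at this step, from 252 to 14.3 and from 288 to 11.2. Eno1, enolase, went from 45.0 to 7.44 and from 35.1 to 3.57. With Pklr these were 5 genes at least 2-fold lower in both libraries, of 7 that reached the minimum level for this step, where 16% of 5324 genes tested did so. Bpgm and Hk1 were the other two, and neither was 2-fold higher in both libraries, as 6.59% of genes were. Pfkl, the phosphofructokinase subunit of liver and red cells, fell below the minimum at this step, with 24.4 and 33.3 CPM in the first stage and 8.99 and 10.4 in the second.

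From first to last stage, 5 of 8 genes tested were lower past 2-fold in both libraries, Pklr, Hk1, Pfkl, Ldha and Eno1. Over all genes 78.3% were lower and 4.25% higher, with medians of −1.93 in the control and −3.03 in DKO cells on the log2 scale, and the 8 genes had medians of −1.32 and −3.10. Bpgm was the 1 gene that was higher. After centring on the median gene of each library, Bpgm, Gpi1 and Aldoa were higher and 1 gene lower.

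After the low in the second stage, control levels of Pkm, Gpi1, Aldoa and Ldha climbed again toward the last stage, to 80.1, 39.2, 81.7 and 63.7 CPM. Eno1 had its control low in the third stage, at 3.88, and reached 16.3. With hemoglobin kept in the denominator there was no such climb, and control values were lower in the last stage than in the second. Pkm went from 8.21 to 6.71 CPM, Gpi1 from 6.66 to 3.29, Aldoa from 12.6 to 6.85 and Ldha from 10.2 to 5.34. Eno1 went from 5.32 to 1.37. The levels of these genes moved with leukocyte RNA. The sum of 7 leukocyte genes (S100a8, S100a9, Lyz2, Ngp, Camp, Ltf and Cd74), none of them at 0 in any stage, was used to estimate free RNA at its most, by treating all of their UMIs in erythroid cells as free and scaling the rest of the empty-droplet profile to them. For DKO cells the same control profile was used. From 40% hemoglobin on, that estimate covered 71.0% to 130% of control Gpi1 UMIs, 65.0% to 79.1% of Aldoa, 71.9% to 118% of Ldha and 126% to 146% of Eno1. In the first control stage it covered at most 21.9% of these 4 genes. The part of free RNA in the late levels beyond these bounds was not tested.

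**Figure D4:**
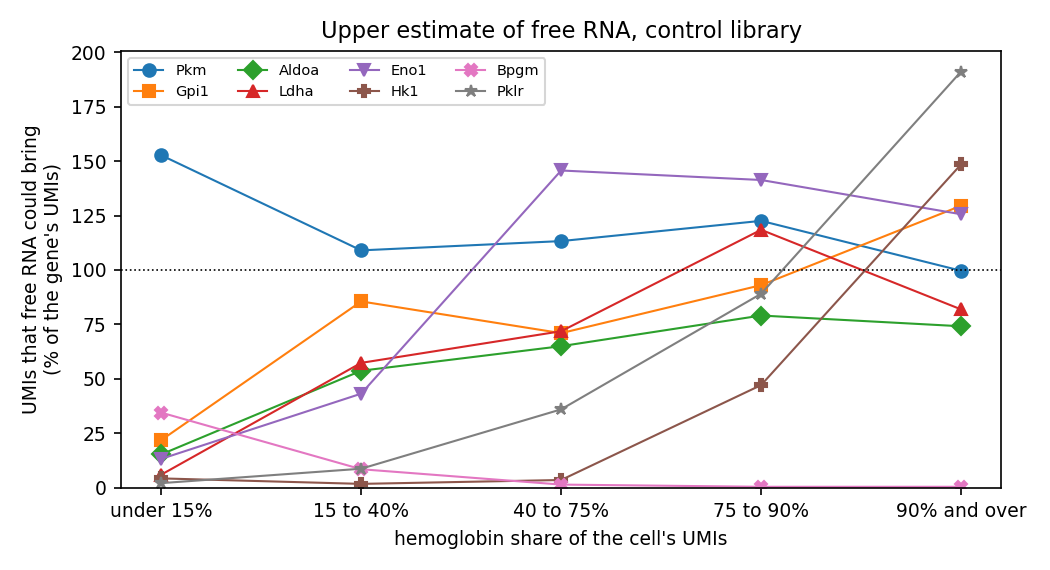
Upper estimate of the free RNA among each gene's UMIs in the control library, in percent of the gene's UMIs (vertical axis), by erythroid stage (horizontal axis). The dotted line marks 100%. Pkm lies about at that line in the last stage and above it in the others. Bpgm falls from 34.5% to 0.48%, and Hk1 stays under 5% until 75% hemoglobin.

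Slc2a1, the glucose transporter GLUT1, was hardly detected in the erythroid cells. No stage held more than 7 of its UMIs, and its level stayed at or below 3.27 CPM. Floors of 3 UMIs correspond to 0.418 to 4.90 CPM in these stages, and its low level was thus not distinguishable from absence at this depth in the late ones. The Il1b-led cluster had 115 CPM in the control and 94.4 in DKO cells, and no other class passed 20.4. Slc2a3, another glucose transporter, had 28.4 and 36.4 CPM in the first erythroid stage and 10.8 and 16.8 in the second. Slc2a4, also a glucose transporter, had 11.9 and 11.6 CPM in the first stage. It had 67.9 in the control and 53.0 in DKO cells at 15 to 40% hemoglobin, and 63.8 and 73.4 at 40 to 75%.

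In non-erythroid marrow Pkm, Gpi1, Aldoa, Ldha and Eno1 each had a class above all erythroid stages. Pkm was highest in megakaryocytes (789 CPM control, 883 DKO), as were Ldha (733 and 600) and Aldoa (566 and 578). Granulocyte-monocyte progenitors led for Gpi1 (772 and 668) and Eno1 (292 and 215). Pfkl was highest in basophils or mast cells, at 48.3 and 43.3, with an interval that overlapped that of megakaryocytes in both libraries and that of the first erythroid stage in the DKO library. In each library these leading levels came with intervals apart from those of the second class for Pkm, Aldoa, Ldha and Eno1. Gpi1 progenitors and neutrophils overlapped in the DKO library alone, 640 to 697 and 623 to 647.

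Between the genotypes, Bpgm was lower in the DKO library at each erythroid stage. The log2 ratios of DKO over control were −0.79 (−0.96 to −0.62), −1.13 (−1.30 to −0.96), −0.88 (−0.93 to −0.84), −0.59 (−0.61 to −0.56) and −0.22 (−0.24 to −0.19). The first 4 passed 1.5-fold, the fourth barely. In the same stages 2.34%, 3.41%, 7.62% and 28.5% of all genes tested were lower past 1.5-fold, and 44.2% in the last, where Bpgm did not pass. The median gene stood at −0.46 in the last stage and between −0.05 and 0.11 in the others, so that in the last stage Bpgm lay 0.25 above the median gene while below 0 itself. In the first stage, where up to 34.5% of control and 24.7% of DKO Bpgm UMIs could be free RNA, its part in the ratio was not tested.

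At like hemoglobin share the same order held in 10 of 11 bins, the highest bin being the exception. Cells with 50 to 60% hemoglobin had 1383 Bpgm CPM in the control library (1307 to 1462) and 667 in the DKO library (628 to 707). At 80 to 90% the levels were 22091 and 16468. In the highest bin, at median shares of 93.5 and 93.9%, they were 25903 (24926 to 26908) and 26088 (25686 to 26495), whose intervals overlapped. The 10 lower bins had no overlap. Median hemoglobin shares within a bin differed by at most 1.36 percentage points between libraries, and weighting the stages to equal hemoglobin shares left log2 ratios of −0.81, −1.17, −0.71, −0.46 and −0.17, of which the fourth no longer passed 1.5-fold.

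**Figure D5:**
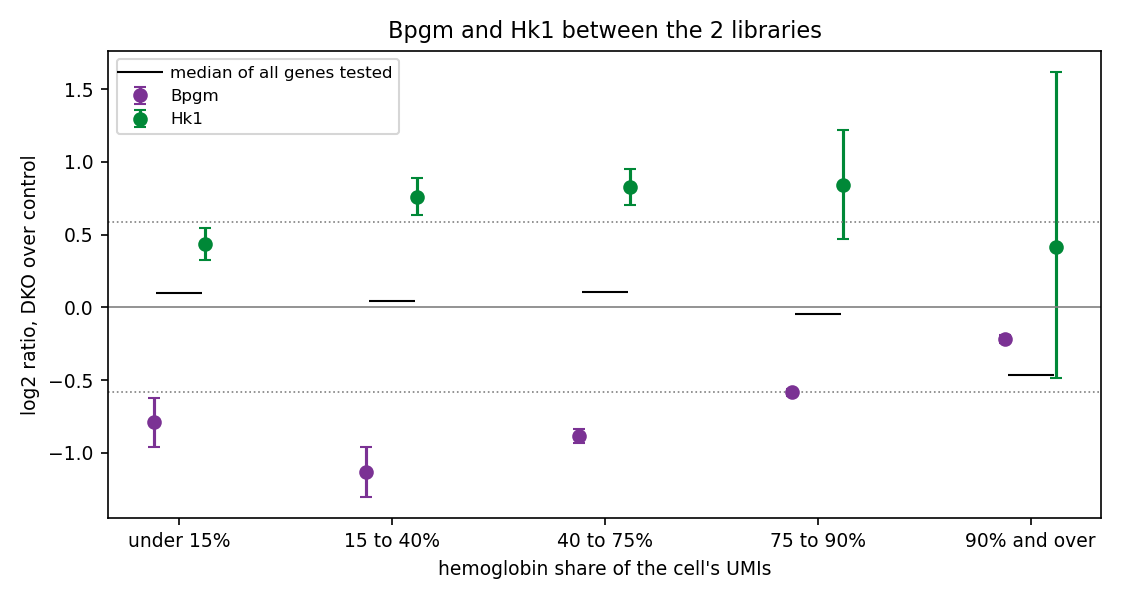
Log2 ratio of DKO over control levels of Bpgm and Hk1 (vertical axis) in 5 erythroid stages (horizontal axis). Bars are 95% intervals of counting error, dotted lines mark 1.5-fold and dashes the median of all genes tested in that stage; Bpgm lies below 0 in 5 of 5 stages and Hk1 above 0 in 5 of 5.

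Hk1 was higher in the DKO library in the same stages. Its log2 ratios were 0.44 (0.33 to 0.55), 0.76 (0.63 to 0.89), 0.82 (0.70 to 0.95), 0.84 (0.47 to 1.22) and 0.42 (−0.48 to 1.62). It passed 1.5-fold in the middle 3, where 3.14%, 13.6% and 24.5% of all genes were higher to that degree. In the first and last stages, 3.1% and 11.5% were. The last stage rests on 11 control and 40 DKO UMIs, and free RNA at its most could bring all of the control ones. Bins of hemoglobin share gave a higher DKO level in 11 of 11, with 8 not overlapping, all of them below 80%. Without the late erythroid clusters led by Isg15, an interferon-induced gene, the 75 to 90% ratio was 0.55, short of 1.5-fold, and that of the last stage turned to −0.17. In megakaryocytes Hk1 had 256 CPM (226 to 289) in control and 255 CPM (215 to 300) in DKO cells, with overlapping intervals.

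Pklr had log2 ratios of 0.45 (0.22 to 0.68) in the first stage and 0.60 (−0.23 to 1.55) in the second, short of 1.5-fold or of the minimum level. Gpi1, Pfkl, Aldoa and Ldha also stayed within 1.5-fold in the first stage, between 0.05 and 0.45, and Eno1 stood at −0.36 (−0.61 to −0.11). Of the 8 genes tested there, Bpgm alone passed.

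Pkm, Aldoa and Ldha were lower in the DKO library in the late stages, together with the leukocyte genes. At 75 to 90% hemoglobin their log2 ratios were −1.64 (−2.35 to −1.07), −1.34 (−1.92 to −0.85) and −2.03 (−3.08 to −1.27). In the last stage they were −1.51 (−2.13 to −0.90), −1.22 (−1.80 to −0.64) and −1.59 (−2.31 to −0.89). With Bpgm this made 4 of 6 genes tested lower at 75 to 90%, where 28.5% of all genes were. In the last stage, where Bpgm did not pass, 3 of 6 were lower, beside 44.2% of all genes. On the scale of all UMIs, the 3 genes had −1.53, −1.23 and −1.92 at 75 to 90%, while the 7 leukocyte genes went from 939 CPM in control to 413 CPM in DKO cells, which is −1.18 on the log2 scale. In the last stage the leukocyte genes gave 788 and 318, or −1.31, beside −1.69, −1.40 and −1.77. Free RNA at its most covered 79.1% or more of the UMIs of these genes in the 75 to 90% stage in each library, and its part in their differences was not tested.

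Other genes of the pathway were taken from 5 lists. Of 20 further glycolysis enzymes, 4 reached the minimum level at 75 to 90% hemoglobin and all 4 were lower in the DKO library: Gapdh (87.6 against 49.97 CPM), Tpi1 (26.7 against 14.4), Pgk1 (26.4 against 11.1) and Pgam1 (37.0 against 12.2). Their median log2 ratio was −1.02, against −0.05 over all 2508 genes tested, of which 28.5% were lower past 1.5-fold. The 7 leukocyte genes were lower there too, at −1.18 on the scale of all UMIs, and their part in these ratios was not tested. In the first 3 stages no listed gene outside the 10 that was tested passed 1.5-fold in either direction. Not all reached the minimum level: of the 20 enzymes 4, 2 and 1 did, and of 7 pentose phosphate genes 7, 5 and 3. Of all genes tested in these stages, 3.1%, 3.14% and 13.6% were higher past 1.5-fold, and 2.34%, 3.41% and 7.62% lower. Among 6 transporters, Slc16a1, the monocarboxylate transporter that carries lactate and pyruvate across the membrane, went from 176 CPM in the control to 497 in the DKO library at 75 to 90% (log2 1.49, 1.33 to 1.66), where 24.5% of all genes were higher past 1.5-fold. Its ratios at 40 to 75% and in the last stage were 0.31 and 0.17. Bsg, the partner protein that brings it to the cell surface, stayed within 1.5-fold in all 5 stages, between −0.35 and −0.05.

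Pfkfb2, which sets the level of an activator of phosphofructokinase, was the 1 regulator of 10 that was tested at 75 to 90%, and it was higher in the DKO library (17.1 against 26.7 CPM, 48 UMIs in each, beside the same 24.5% of all genes). Of 4 genes of side reactions, Minpp1, a phosphatase that can act on bisphosphoglycerate, had 29.2 CPM in the control and 17.8 in DKO cells at 75 to 90%, and 32.7 and 16.0 in the last stage. These levels rest on 82 and 32 UMIs, then on 20 and 25. Their intervals overlapped between the libraries in both stages, and the part of free RNA was not tested. In the pentose phosphate branch, which supplies NADPH, 2 of 4 genes tested were lower at 75 to 90%, Pgls (38.1 against 13.3) and Pgd (25.3 against 15.5), and Pgls alone of 4 in the last stage. Over all genes, 28.5% and 44.2% were lower in these stages.

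Outside the erythroid lineage, Bpgm was lower past 1.5-fold in the DKO library in 7 classes of 10. Log2 ratios were −0.63 in neutrophils, −1.01 in monocytes, −0.69 in basophils or mast cells, −0.97 in dendritic cells, −0.73 in the Il1b-led cluster, −0.81 in macrophages and −2.02 in megakaryocytes. Shares of all genes lower to that degree in these classes were 1.39%, 1.77%, 2.32%, 5.08%, 6.44%, 15.2% and 15.6%. The Bpgm ratio to hemoglobin in these classes moved the same way, from 3.03 or more per 1000 in each control class to 2.95 or less in each DKO class, as it did in late erythroid cells. In megakaryocytes hemoglobin itself differed, at 19.6% of UMIs in the control and 8.52% in DKO cells. Per 1000 hemoglobin UMIs their Bpgm was 3.07 and 1.96, a smaller difference than that of the levels. The part of hemoglobin content or free RNA in the ratios of these classes was not tested. Other calls were few: Eno1 in T or NK cells (log2 −0.69, where 4.89% of genes were lower) and, on 36 against 12 UMIs, in macrophages (−0.74), and Hk1 in macrophages on 12 against 4 UMIs. None of the 10 genes passed in B cells or granulocyte-monocyte progenitors, where 1.36% and 2.57% of genes were lower, and none of the 10 was higher past 1.5-fold in any of the 10 classes. Shares of all genes that were higher ran from 2.22% in B cells, 2.89% in basophils or mast cells, 3.93% in monocytes, 4.46% in neutrophils and 5.86% in the Il1b-led cluster, through 10.8% in T or NK, 12.2% in dendritic, 13.1% in megakaryocyte and 13.3% in macrophage cells, to 20.2% in granulocyte-monocyte progenitors.

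Likeness to Bpgm over the 15 stages and classes was ranked among 6905 genes by Pearson correlation of log2 levels in the control library. The closest genes were Ccndbp1, Gabarapl2, Tent5c, Mkrn1 and an entry for Fam220a. In the control library r was 0.984 for Ccndbp1 and 0.979 for Mkrn1. Tent5c was among the markers that named the late erythroid clusters. Pklr was followed by Mt2, Sh2d4a, C1qtnf12, Car1 and Zbtb46, with r of 0.944 for Mt2 and 0.828 for Zbtb46 in the control. None of the other 9 genes came close to Bpgm, whose correlations with them lay between −0.67 and −0.01 in the control library. These 15 points share a library and its free RNA.

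Some counts could be split between near-identical copies. Of the 50-base words in the last 500 transcript bases, 68.1% for Eno1 recurred in other genes, led by Eno1b, and 27.4%, 19.3%, 12.8% and 12.7% did for Gpi1, Pkm, Ldha and Aldoa, mostly in pseudogenes. For Bpgm, Pklr, Hk1, Pfkl and Slc2a1 none did. Reads that fall in such stretches may be left uncounted, so a low Eno1 level is a lower limit.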

How the data were processed

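The authors made the deposited UMI counts with Cell Ranger 7.1.0 (per the file headers) from 10x Genomics 3′ v3 libraries, on mm10 per the submitters' notes. The gene annotation is not given in the sources used here. GENCODE M21, which gave positions, held 32235 of the 32285 gene identifiers. The DKO matrix held 14142 barcodes (117725934 UMIs, lowest 500), and the control matrix 1518290 barcodes (135693452 UMIs), so control cells were called here. The 9663 barcodes above 4869 UMIs were kept, as were 9535 of 10284 others from 500 UMIs that differed from droplets of at most 100 UMIs (false discovery rate 0.01). Among the 749 left out, 354 held at least 75% hemoglobin. Cells above 20% mitochondrial UMIs and doublets called by Scrublet (2.21% control, 1.49% DKO) were removed. Leiden clusters (scanpy 1.11.5, resolution 1) used no gene of the glycolysis lists and were named from markers. Raw UMIs were summed per library and stage or class. Ratios had 1 count added and exact conditional binomial intervals. Tested genes had at least 20 CPM over both libraries. All 10 genes are named, and listed genes past the fold. Genes and lists were chosen with earlier results of these data known. Calculations were tested on simulated counts. Alternatives changed scaling, thresholds, filters, calling, doublets, clustering and stage matching.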

Additional observations from a re-analysis of the deposited data

Results flagged for a closer look

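A second entry named Aldoa, at chromosome 7, 126800790 to 126809108, next to the aldolase gene used above (126795234 to 126800751), was outside all comparisons. It held 13 UMIs in the control cells and 19 in the DKO cells, above the 3 that a count of 0 allows.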

How the results depend on the processing

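No paired analysis was possible because each genotype had 1 library, and no replicate could be left out. The counts reported were 3 gene and stage pairs higher and 10 lower in the DKO library past 1.5-fold, and 1 gene higher and 5 lower in the last stage than in the first. Setting stages by hemoglobin alone, without erythroid clusters, gave 20 lower pairs, and keeping doublets 15. A minimum of 50 CPM gave 4 lower pairs and 2 genes lower between stages. With no minimum there were 26 lower pairs, and 2 genes higher between stages. With the fold raised to 2 (4 between stages), 0 pairs were higher and 2 genes lower between stages. Centring on the median gene gave 3 genes higher and 1 lower between stages. Among genes tested it also turned 7 falls between those stages to rises: Pfkl 0.61, Eno1 0.61, Gpi1 1.21 and Aldoa 1.47 in the control, and Gpi1 2.03, Aldoa 1.29 and Eno1 0.050 in the DKO library. Changes under another minimum or fold, or under centring, follow from how these were built; for hemoglobin alone and for doublets the cause was not tested.

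In 11 of 11 settings Bpgm stayed past 1.5-fold lower at 15 to 40% and at 40 to 75%, and in 12 of 12 Hk1 past 1.5-fold higher. At 75 to 90% Bpgm passed in 5 of 11. It fell short among others with all UMIs (−0.48), centring (−0.54), matching of hemoglobin shares (−0.46) and without clusters led by Isg15 (−0.54), and in the first stage it fell short in 2 settings, one of them cells of at least 1000 UMIs (−0.54). In the last stage centring turned it to 0.25. Leaving out early cells of low UMI counts or the Isg15-led clusters, both chosen after seeing the data, gave 10 and 8 lower pairs. Depth limited Slc2a1, Pklr and Pfkl, with few UMIs in late stages, and intervals cover counting error only.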
